A study of Mus musculus with 6 samples.

Results

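The proteasome is the protease that destroys ubiquitin-tagged proteins, and its subunits are encoded by genes named Psma, Psmb, Psmc, Psmd and Psme followed by a number. Ribosome footprints on these genes were compared between fully grown mouse oocytes, oocytes matured to metaphase II and oocytes matured with a ligand of RNA G-quadruplexes. Members were chosen by gene name alone, and 45 of the 22416 genes in the table had such a name. Psmb11, the form of the thymus, was listed at 0 in all 6 libraries and was left out, so 44 members remained of the 16545 genes with a mean above 0. They comprised 8 genes of the alpha ring and 10 of the beta ring (the core particle), 6 ATPase and 11 non-ATPase subunits (the regulatory particle), 3 chaperones that assemble the base of the regulatory particle, 5 activators, and Psmc3ip, a meiotic recombination factor that matches by name and is no subunit.

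The footprints came from Ribo-lite, which profiles ribosomes in small samples, with 500 oocytes per library from 4-week-old female mice collected 44 h after injection of PMSG, a gonadotropin. The study's methods describe collection at the germinal vesicle stage followed by culture in M16 medium, where metaphase II was reached. Maturation and time in culture thus go together. The groups were WT_FGO (oocytes fully grown and still with a germinal vesicle), WT_MII (control oocytes at metaphase II) and Treat_MII (treated oocytes at metaphase II), with 2 libraries each. The labels call the last group only treated, and the study's methods and results name the agent as BYBX, which stabilises RNA G-quadruplexes, with DMSO for the controls. Each library is a pool of oocytes, and nothing in the labels states that the 2 libraries of a group came from separate animals, so p-values measure the spread between these libraries only.

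The core particle is a barrel of 4 stacked rings, with alpha subunits at the ends as a gate and beta subunits inside, some of which carry the catalytic sites. The regulatory particle sits on the barrel. Its base holds a ring of ATPases that unfolds substrates, and its lid removes ubiquitin. Activators can replace the regulatory particle at the gate. In oocytes, meiosis proceeds to metaphase II through proteasomal destruction of cyclin B and securin, and, because transcription is silent by then, new protein is made from stored mRNA whose translation is switched on or off.

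Values are FPKM, footprints scaled to the length of the coding sequence and to the reads of the library, so levels are relative to the library's own total and can be compared between genes per length. Fewer footprints per oocyte in all genes alike would not be visible, and fewer oocytes contributing to a level cannot be told apart from less RNA per oocyte. FPKM multiplied by the coding length fell on whole reads for 98.4% of the 21937 genes with a known length, at a tolerance of 0.02 reads, and for all 44 members. The libraries held 94309 and 107251 reads in WT_FGO, 164972 and 230907 in WT_MII, and 331304 and 275604 in Treat_MII. The members took 4460 reads in all, with a median of 47 per member over the 6 libraries and a range of 1 to 919, and the median of the tested genes was 13. A level that rests on a few reads is therefore uncertain, and 7 members had at most 3 reads in each library. Counting intervals and floors cover counting error only, since copies made by PCR are not independent molecules.

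Of the 44 members, 24 had footprints in all 6 libraries, 11 in 5, 3 in 4, 1 in 2 and 5 in a single library. Replicate libraries ranked the 44 members with a Spearman's rho of 0.793 in WT_FGO, 0.787 in WT_MII and 0.951 in Treat_MII, across genes that are not independent replicates. Some members share sequence with other genes. For Psma3, Psma5, Psmb3, Psmb5, Psme2 and Psme2b, over 80% of the 28-base words of the coding sequence also occurred in transcripts of other genes, and these 6 members had 1 to 23 reads each. Psma3 and Psmb5 are standing parts of the core, and whether shared sequence contributed to their low read counts was not tested. A further 8 members shared 20% to 80% of their words, Psma2 35.0% of them, Psma4 62.7% and Psmd2 49.6%, and 22 members shared none. Coding exons of Psmc3, Psmd3, Psmb5, Psmb8, Psmd1 and Psmb7 overlap an exon of another annotated gene, and whether the counting used strand is not given in the sources used here.

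The libraries were checked against cell type markers. All 8 oocyte markers were seen, and their summed level was 30628 and 18174 FPKM in WT_FGO, 5653 and 6254 in WT_MII, then 9975 and 10388 in Treat_MII. Of 10 granulosa or cumulus markers, 9 were seen in at least 1 library, Tnfaip6 was at 0, and their sum lay between 95.3 and 129 FPKM in 5 libraries and at 1154 FPKM in WT_FGO_2. Of 6 leukocyte markers, 5 were seen in at least 1 library, Lyz2 was at 0, and the sum lay between 3.13 and 56.7 FPKM. WT_FGO_2 thus stood apart in granulosa markers, and values without it are given below where its removal changed a call. They are also given for some, but not all, of the members whose values moved by over 1.5 times.

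Sequence elements that act on translation were looked for in the longest coding transcript of each member (GENCODE M21, GRCm38). The first was the cytoplasmic polyadenylation element, spelled TTTTAT or TTTTAAT on the coding strand, through which the tail of a stored mRNA is lengthened or shortened in oocytes. Among the 35 members with a 3′-UTR of at least 100 bases, 15 (42.9%) held it anywhere in the 3′-UTR, against 59.1% of the 13608 tested genes with such a UTR. In the last 100 bases, where it acts on the tail, 3 of the 35 (8.57%) held it, against 18.7% of those genes. These were Psma1, Psma5 and Psmb1. The sites of these members and the site of Psma2 closest to the transcript end are printed with the element in capitals, because Psma1 and Psma2 lay higher at metaphase II and Psmb1 lay lower. The site of Psma1 (chr7:114264661-114264686, minus strand) began 71 bases from the transcript end, that of Psma5 (chr3:108279912-108279937, plus strand) 53 bases, that of Psmb1 (chr17:15475030-15475056, minus strand) 26 bases and that of Psma2 (chr13:14627074-14627100, plus strand) 553 bases. Psmd3, which also lay higher at metaphase II, held no such letters in its 3′-UTR.
Psma1: ataccaatgtTTTTATatgaagaaaa
Psma5: gtgtgtgtttTTTTATgaagtctgta
Psmb1: ttttgcttttTTTTAATaaacttctgt
Psma2: tgttttttgtTTTTAATtatctgactg

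The second element was the G-quadruplex motif, 4 runs of 3 or more G separated by 1 to 7 bases, because the treatment is directed at this fold. It occurred in the 5′-UTR of 4 of the 44 members (9.09%, against 7.01% of 14806 tested genes), in no coding sequence (0 of 44, against 4.51%) and in the 3′-UTR of 1 member (2.27%, against 10.5%). The members with a motif in the 5′-UTR were Psmb8, Psmd5, Psme4 and Psma5, and the member with one in the 3′-UTR was Psmd13. A motif in the letters is not a measured G-quadruplex. Of these 5 members, Psmd5 and Psme4 had enough reads to be followed, and their values are given with the chaperones and activators.

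The share of all footprints that fell on the 44 members came to 0.486% and 0.547% in WT_FGO, 0.270% and 0.306% in WT_MII, and 0.375% and 0.370% in Treat_MII. The rank of the members changed with it. In WT_FGO the highest level belonged to Psmb2, a structural beta subunit, with 862 and 727 FPKM. In both metaphase II groups it belonged to Psma2, an alpha subunit, with 855 and 993 FPKM in WT_MII against 1406 and 1452 FPKM in Treat_MII. Psma2 alone made up 6.42% and 7.91% of the members' summed FPKM in WT_FGO, 32.5% and 33.3% in WT_MII, and 37.4% and 38.8% in Treat_MII. Without Psma2 the summed level of the other 43 members was 4600 ± 279 FPKM in WT_FGO, 1882 ± 150 in WT_MII and 2327 ± 44.3 in Treat_MII (mean ± SD, n = 2 each).

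**Figure D1:**
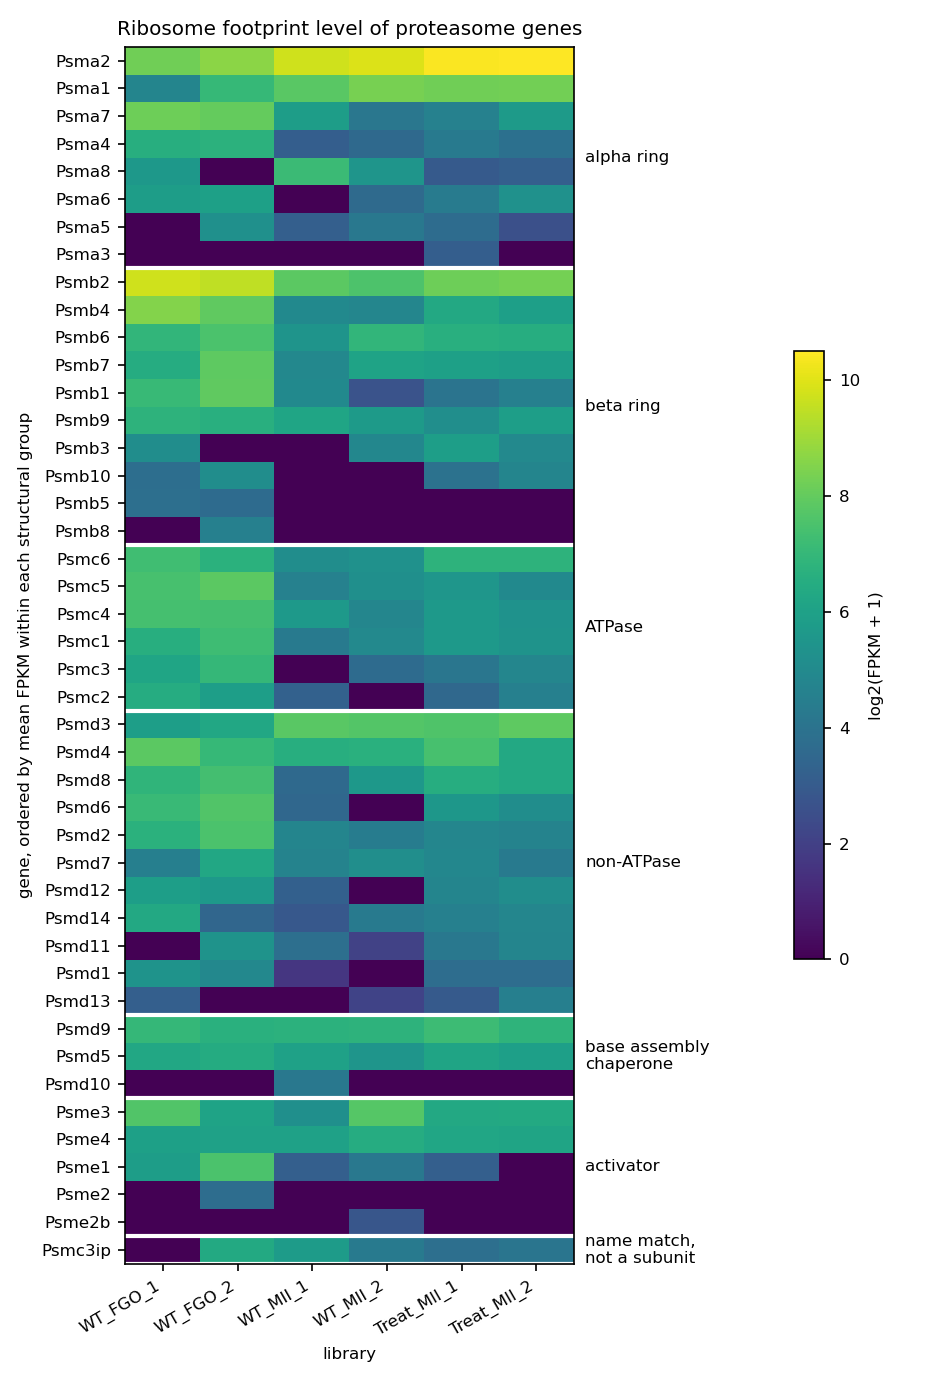
Level of each of the 44 members, as log2(FPKM + 1), in the 6 libraries (columns), with genes in rows grouped by structural role and ordered by mean FPKM. Psma2 and Psma1 were brighter in the metaphase II libraries, most beta, ATPase and non-ATPase subunits were darker in WT_MII than in WT_FGO, and dark cells are levels at 0.

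For maturation, WT_MII was set against WT_FGO. The proteasome genes as a group lay lower at metaphase II, and a few members went the other way. Psma2 and Psmd3 rose, whereas the core subunits Psmb2, Psmb4, Psmb10 and Psma4, the ATPases Psmc4 and Psmc5, and the regulatory subunits Psmd1, Psmd2 and Psmd6 fell. On log2(FPKM + 1), limma thus called 2 of the 44 members higher (4.55%, against 3.67% of all 15127 tested genes) and 9 lower (20.5%, against 3.09%) at an adjusted p under 0.05. All 44 members reached the mean of 1 FPKM needed to be tested. Both WT_MII libraries lay below both WT_FGO libraries in 24 members (54.5%, against 25.8%) and above them in 4 members (9.09%, against 15.3%).

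The median difference was -1.73 over the 44 members and -0.44 over all tested genes, and 33 members had a difference below 0. For the 20 members with 60 or more reads (a limit set with the data in view), the median was also -1.73, where it was 0.23 over the 2706 tested genes with as many reads. The limit sums reads over libraries of unequal depth. It therefore favours genes that are high in the deeper libraries, those of metaphase II, in every contrast where it is used. In those 20 members the libraries did not overlap in 17, with 13 lower (65%, against 34.4% of those 2706 genes) and 4 higher (20%, against 41.2%). Limma called 2 of those 20 members higher, against 441 of the 2706 genes, and 6 lower, against 227. The regulatory particle had a median of -2.31 and the core of -1.80. Whether the granulosa RNA in WT_FGO_2 or the lower oocyte marker level in WT_MII contributed was not tested, and the members' median was -2.02 without WT_FGO_2 and -1.97 without WT_FGO_1.

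The calls changed with the libraries in the fit. With either Treat_MII library left out of the fit, 0 genes were called in the maturation contrast, members or not, and 0 members were called when only the 4 compared libraries were fitted. Neither Psma2 nor Psmd3 kept its call without WT_MII_1 or without WT_MII_2, and Psmd3 lost it without WT_FGO_1 too. Over all alternatives the difference of Psma2 lay between 1.16 and 1.85 and that of Psmd3 between 1.43 and 2.11. Several alternatives alter only the filter, the variance, the replicate block or libraries outside the contrast, and these cannot change a sign. Nor can leaving out 1 library turn a sign where the groups do not overlap, which held for all 11 called members. Without WT_FGO_2, the library with the granulosa markers, Psmc5, Psmc4, Psmd1, Psmd6 and Psmb10 were no longer called, while Psma1 was called higher and Psmc6 and Psmb5 lower. In that fit WT_FGO is a single library, and Psmb5 had a single read in it and none in WT_MII. All 11 called members kept the sign of the difference in 16 of 16 alternatives, and Psma4 was called in 12 of them, Psmb2 in 11, Psma2 and Psmb4 in 10, Psmd6 in 9, Psmd2 and Psmc5 in 8, Psmd3 and Psmb10 in 7, Psmd1 in 5 and Psmc4 in 3.

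**Figure D2:**
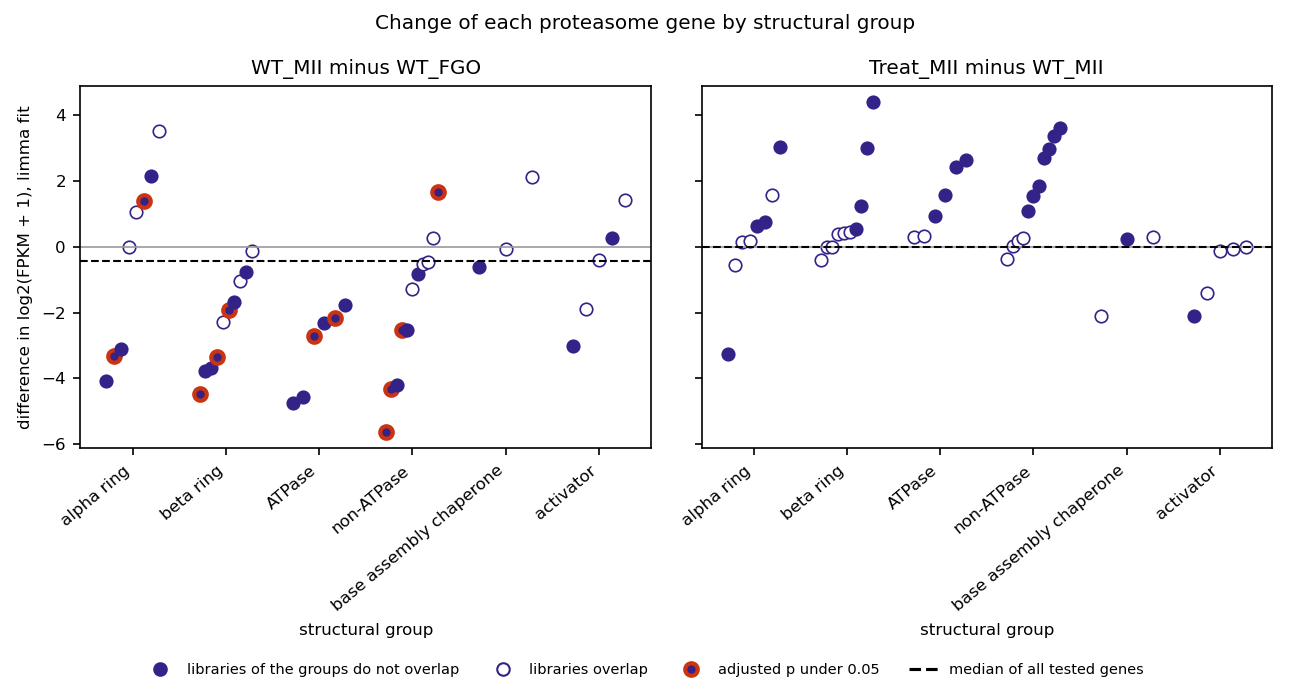
Difference in log2(FPKM + 1) from the limma fit for each member (points) by structural group, for WT_MII minus WT_FGO (left) and Treat_MII minus WT_MII (right). Filled points mark members whose libraries do not overlap between the groups, red rims mark an adjusted p under 0.05, and the dashed line is the median of all tested genes. All 6 ATPases and all 10 beta genes lay below 0 in the left panel, and all 6 ATPases lay above 0 in the right panel.

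The alpha ring forms the gate of the core. Its 8 genes did not move together in maturation, with 4 above 0, 3 below and Psma3 at 0. Of those above 0, Psma5 had 0 and 3 reads in WT_FGO and 1 and 3 in WT_MII, and its mean fell from 18.8 to 12.8 FPKM. Psma2 (ENSMUSG00000015671.11) had 302 and 412 FPKM in WT_FGO against 855 and 993 FPKM in WT_MII, from 51 reads and 260 reads. Both WT_MII libraries were higher, with a log2 difference of 1.38 ± 0.25 (SE, limma, adjusted p = 0.0308). Psma1 had 26.9 and 130 FPKM in WT_FGO against 223 and 324 FPKM in WT_MII. The groups did not overlap, the WT_FGO libraries lay far apart, and the difference of 2.16 ± 0.72 (SE) was not called (limma adjusted p = 0.145). Without WT_FGO_2 it was 3.27 and was called.

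Psma8, the form of the testis and the germ line, was seen with 4 and 0 reads in WT_FGO, 21 and 9 reads in WT_MII, and 2 and 2 reads in Treat_MII. Its rate of footprints (reads over library reads) was 3.82 times as high in WT_MII as in WT_FGO (exact 95% counting interval 1.35 to 14.9), and it was not called (limma adjusted p = 0.326). Without WT_FGO_2 the ratio was 1.79 (0.630 to 6.98). The other alpha genes that could be followed lay lower in WT_MII. Psma4 had 94.8 and 107 FPKM in WT_FGO against 7.74 and 11.1 FPKM in WT_MII, a rate 10.5 times lower (2.998 to 56.1, exact 95% interval, 3 reads in WT_MII, limma adjusted p = 0.0249), and it had 19.3 and 13.9 FPKM in Treat_MII.

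Psma7 had 293 and 258 FPKM in WT_FGO against 55.9 and 17.1 FPKM in WT_MII, a difference of -3.10 ± 0.69 (SE), and just missed the threshold (limma adjusted p = 0.0544). Its treated libraries had 23.9 and 52.6 FPKM. Psma6 had 56.0 and 61.6 FPKM and then 0 and 11.4 FPKM, and was not called (adjusted p = 0.112). Psma2 thus came to dominate the ring. It held 36.8% and 40.9% of the alpha ring's summed FPKM in WT_FGO, 66.2% and 70.1% in WT_MII, and 78.5% and 77.5% in Treat_MII. The ring sum was 913 ± 131 FPKM in WT_FGO and 1355 ± 89.1 in WT_MII, and without Psma2 it was 556 ± 53.6 and 431 ± 8.80 (mean ± SD, n = 2).

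All 10 beta genes had a difference below 0 in maturation, 7 of them with no overlap between the groups, and 3 were called. Psmb2, a structural subunit and the most abundant of the ring, fell from 862 and 727 FPKM to 231 and 187 FPKM, a log2 difference of -1.92 ± 0.27 (SE, limma adjusted p = 0.0153). Psmb4, another structural subunit, fell from 375 and 247 FPKM to 30.6 and 27.3 FPKM, a difference of -3.35 ± 0.42 (adjusted p = 0.0107). In the WT_FGO pair these values rested on 96 reads for Psmb2 and 49 for Psmb4. Psmb1, a structural subunit too, had 134 and 247 FPKM and then 30.6 and 5.47 FPKM and was not called (adjusted p = 0.0617). It had 15.2 and 22.9 FPKM in Treat_MII.

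The catalytic members of the ring were less clear. Psmb6 had 119 and 183 FPKM in WT_FGO against 42.4 and 121 FPKM in WT_MII, so the groups overlapped, and 97.2 and 91.5 FPKM in Treat_MII. Psmb7 had 89.3 and 236 FPKM and then 29.2 and 67.7 FPKM, which did not overlap and was not called (limma adjusted p = 0.192). Psmb5 had a single read in each WT_FGO library and none elsewhere.

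The inducible catalytic subunits replace the standard ones in the immune form of the core. Psmb9 was the only such subunit seen in all 6 libraries, with 110 and 96.5 FPKM in WT_FGO, 71.7 and 51.3 in WT_MII, then 35.7 and 59.0 in Treat_MII. Its maturation difference of -0.75 ± 0.46 (SE) was not called (limma adjusted p = 0.445). Psmb10 was called lower (adjusted p = 0.0402) on 1 and 3 reads in WT_FGO and 0 reads in WT_MII, all at or under a floor of 3 reads per library, so no fold is given, and it was not called without WT_FGO_2. Psmb8 had 2 reads in WT_FGO_2 and none in the other libraries. The sum of the beta ring was 1777 ± 39.2 FPKM in WT_FGO, 462 ± 36.9 in WT_MII and 656 ± 3.38 in Treat_MII (mean ± SD, n = 2), and the order of the groups was the same without Psmb2.

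**Figure D3:**
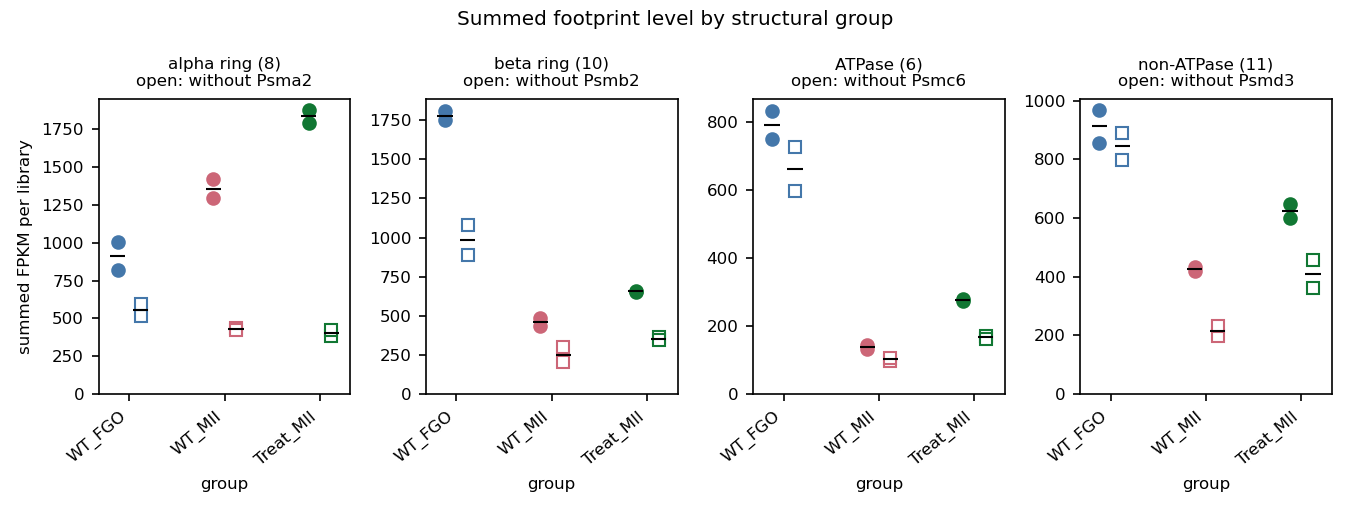
Summed FPKM per library (points) by group for the alpha ring, beta ring, ATPase and non-ATPase subunits, with bars at the mean of the 2 libraries. Filled circles are all members of the set and open squares leave out its most abundant member. The alpha ring sum was higher at metaphase II only with Psma2 included, and the other 3 sums were lowest in WT_MII either way.

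The ATPases lay lower throughout. Both WT_MII libraries lay below both WT_FGO libraries for all 6 of these subunits, and 2 were called. Psmc5 fell from 172 and 231 FPKM to 23.4 and 36.8 FPKM, a log2 difference of -2.72 ± 0.48 (SE, limma adjusted p = 0.0291), and had 44.4 and 30.9 FPKM in Treat_MII. Psmc4 fell from 169 and 164 FPKM to 48.3 and 27.6 FPKM, a difference of -2.15 ± 0.46 (adjusted p = 0.0488), and was called in 3 of the 16 alternatives. It had 50.5 and 40.5 FPKM in Treat_MII. Without WT_FGO_2 neither Psmc5 nor Psmc4 was called. The other 4 had an adjusted p of 0.0506 (Psmc1), 0.0571 (Psmc6), 0.0771 (Psmc2) and 0.0807 (Psmc3), of which Psmc6 was called without WT_FGO_2. Psmc3 had the largest fall of the 6, from 71.8 and 126 FPKM to 0 and 11.7 FPKM, with 16.3 and 27.0 FPKM in Treat_MII. The sum of the 6 was 792 ± 56.9 FPKM in WT_FGO and 138 ± 7.96 in WT_MII (mean ± SD, n = 2).

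Among the 11 non-ATPase subunits, 9 had a difference below 0 and 3 were called lower. Psmd2, a scaffold of the base, fell from 103 and 185 FPKM to 26.3 and 20.3 FPKM, a log2 difference of -2.53 ± 0.51 (SE, limma adjusted p = 0.0426), and had 27.2 and 24.9 FPKM in Treat_MII. Psmd6, a lid subunit, had 136 and 200 FPKM in WT_FGO against 10.4 and 0 FPKM in WT_MII (adjusted p = 0.0434). Its rate of footprints was 39.3 times lower, with an exact 95% counting interval of 10.2 to 336, since WT_MII held 2 reads. Psmd1, the other scaffold of the base, had 40.8 and 29.4 FPKM and then 2.12 and 0 FPKM (adjusted p = 0.0412), a rate 39.3 times lower with an interval of 6.28 to 1628 on a single WT_MII read. Without WT_FGO_2 neither Psmd6 nor Psmd1 was called.

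Psmd3, also a lid subunit, rose against this pattern, from 57.4 and 78.5 FPKM to 222 and 203 FPKM. The difference was 1.65 ± 0.35 (SE, limma adjusted p = 0.0488), on 23 reads in WT_FGO and 139 in WT_MII. Psmd3 held 6.71% and 8.12% of the summed FPKM of the non-ATPase subunits in WT_FGO and 52.8% and 46.8% in WT_MII. Psmd4, a ubiquitin receptor, had 233 and 132 FPKM in WT_FGO against 95.3 and 102 FPKM in WT_MII (adjusted p = 0.456), then 176 and 79.9 FPKM in Treat_MII. Psmd8, of the lid, had 117 and 163 FPKM and then 11.2 and 47.9 FPKM (adjusted p = 0.0984), and Psmd12, of the lid as well, had 58.1 and 51.1 FPKM and then 8.30 and 0 FPKM (adjusted p = 0.0833). Psmd14, the deubiquitinase of the lid, had 79.8 and 10.03 FPKM and then 6.52 and 18.6 FPKM, so the groups overlapped.

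The assembly chaperones and activators, which are not part of the complex of core and regulatory particle, had no member called in maturation. Psmd9 had 128 and 100 FPKM in WT_FGO, 106 and 110 in WT_MII, then 146 and 112 in Treat_MII. Psmd5, with a G-quadruplex motif just before its start codon, had 77.1 and 86.3 FPKM, then 64.1 and 43.0 FPKM, and 69.9 and 59.99 FPKM with treatment. Psmd10 had 2 reads in WT_MII_1 and none elsewhere.

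Psme4, the large activator, rested on many reads and has a pair of G-quadruplex motifs in its 5′-UTR. It had 62.1 and 62.6 FPKM in WT_FGO, 63.7 and 88.8 in WT_MII, then 73.3 and 70.0 in Treat_MII, from 506 reads in all. Its maturation difference was 0.27 ± 0.41 (SE, limma adjusted p = 0.736). Psme3, a nuclear activator, had 203 and 66.8 FPKM, 36.2 and 212 FPKM, and 79.3 and 82.4 FPKM, so that the replicates of WT_FGO and of WT_MII differed more than the groups. Psme1, of the interferon-inducible activator, had 56.5 and 186 FPKM in WT_FGO, 8.07 and 17.3 in WT_MII, then 8.04 and 0 in Treat_MII, while its partner Psme2 had 1 read in WT_FGO_2. Psme2b had 1 read in WT_MII_2. Psmc3ip had 0 and 83.1 FPKM, 54.0 and 19.3 FPKM, and 13.5 and 16.2 FPKM.

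For the treatment, Treat_MII was set against WT_MII. The same WT_MII libraries served in maturation. A low WT_MII value thus enters both contrasts, as a fall there and a rise here. No member passed the test, yet most subunits of the regulatory particle lay higher in both treated libraries. Limma called 0 members and 0 of the 15127 tested genes (0.0% higher and 0.0% lower) at an adjusted p under 0.05. At an unadjusted p under 0.05 there were 9 members, all with a difference above 0, and 576 genes higher and 306 lower over the whole table. Both Treat_MII libraries lay above both WT_MII libraries in 19 of the 44 members (43.2%, against 16.2% of all tested genes) and below them in 3 members (6.82%, against 15.6%). The 3 were Psma8, Psme1 and Psmc3ip. The median difference was 0.35 over the members and 0.00 over all tested genes.

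The regulatory particle had a median of 1.55, with 16 of 17 subunits above 0. Of the 17, 11 did not overlap upward (64.7%, against 16.2% of all tested genes). Without WT_MII_1 the median of the regulatory particle was 0.79. In the WT_MII libraries 2 and 4 of its subunits were at 0. Its summed level had a mean of 566 FPKM in WT_MII and 902 FPKM in Treat_MII. The core had a median of 0.43, with 7 of 18 not overlapping upward (38.9%, against 16.2%) and 1 downward (5.56%, against 15.6%). Among the same 20 members with 60 or more reads the median was 0.31, where it was 0.05 over the tested genes with as many reads. Of those 20 members, 8 lay above with no overlap (40%, against 24.98%) and 0 below (against 21.1%). The treated libraries were the most deeply sequenced, and 10 members were at 0 in each WT_MII library against 5 and 7 in the Treat_MII libraries. Whether depth contributed to the result was not tested.

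Leaving out 1 of the 4 compared libraries gave a members' median between 0.27 and 0.53. In these fits a group is a single library, which is assumed to vary like the others. Such fits called genes over the whole table, where the main fit called 0. The members called in them were Psmd6, Psmd12, Psme2b, Psmd10 and Psma3. Psme2b had 1 read in all, and Psmd10 and Psma3 had 2 each. Psmd6 and Psmd12 had 0 reads in WT_MII_2, the WT_MII library kept in their fit. These calls are therefore not read as effects of the treatment.

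Psmc6, an ATPase, had 34.1 and 38.3 FPKM in WT_MII against 109 and 111 FPKM in Treat_MII, on 18 and 83 reads. Replicates lay close together in both groups, and the difference of 1.58 ± 0.40 (SE) had an unadjusted limma p of 0.00766 and an adjusted p of 0.711. The treated level lay between the WT_FGO values of 153 and 105 FPKM. Psmd8 had 11.2 and 47.9 FPKM in WT_MII against 91.7 and 80.2 FPKM in Treat_MII (adjusted p = 0.842). Psmd6 had 10.4 and 0 FPKM and then 46.6 and 34.2 FPKM (adjusted p = 0.821), a rate of footprints 9.46 times higher (exact 95% interval 2.39 to 81.8). Psmd12 had 8.30 and 0 FPKM and then 26.9 and 34.8 FPKM (adjusted p = 0.836), and Psmd1 had 2.12 and 0 FPKM and then 12.7 in each treated library (adjusted p = 0.767). The ATPase sum was 138 ± 7.96 FPKM in WT_MII and 277 ± 5.62 in Treat_MII, and the non-ATPase sum was 428 ± 9.61 and 625 ± 33.3 (mean ± SD, n = 2).

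In the core, Psma2 had 855 and 993 FPKM in WT_MII against 1406 and 1452 FPKM in Treat_MII, from 260 and 608 reads. All 4 values were far above WT_FGO, and the difference of 0.63 ± 0.25 (SE) was not called (limma adjusted p = 0.843). Psmb4 had 30.6 and 27.3 FPKM and then 80.03 and 59.6 FPKM (adjusted p = 0.836), and Psmb2 had 231 and 187 FPKM and then 290 and 313 FPKM (adjusted p = 0.931). Psmb10 had 0 reads in both WT_MII libraries and 4 and 6 reads in Treat_MII (14.7 and 26.6 FPKM), at least 1.09-fold higher when WT_MII is set to a floor of 3 reads per library (adjusted p = 0.645). Psma8 went the other way, with 142 and 43.6 FPKM in WT_MII against 6.75 and 8.12 FPKM in Treat_MII, a rate 11.5 times lower (exact 95% interval 4.05 to 44.9, adjusted p = 0.931). Psma1 (223 and 324, then 295 and 304 FPKM) and Psmd3 (222 and 203, then 193 and 240 FPKM) had overlapping groups.

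**Figure D4:**
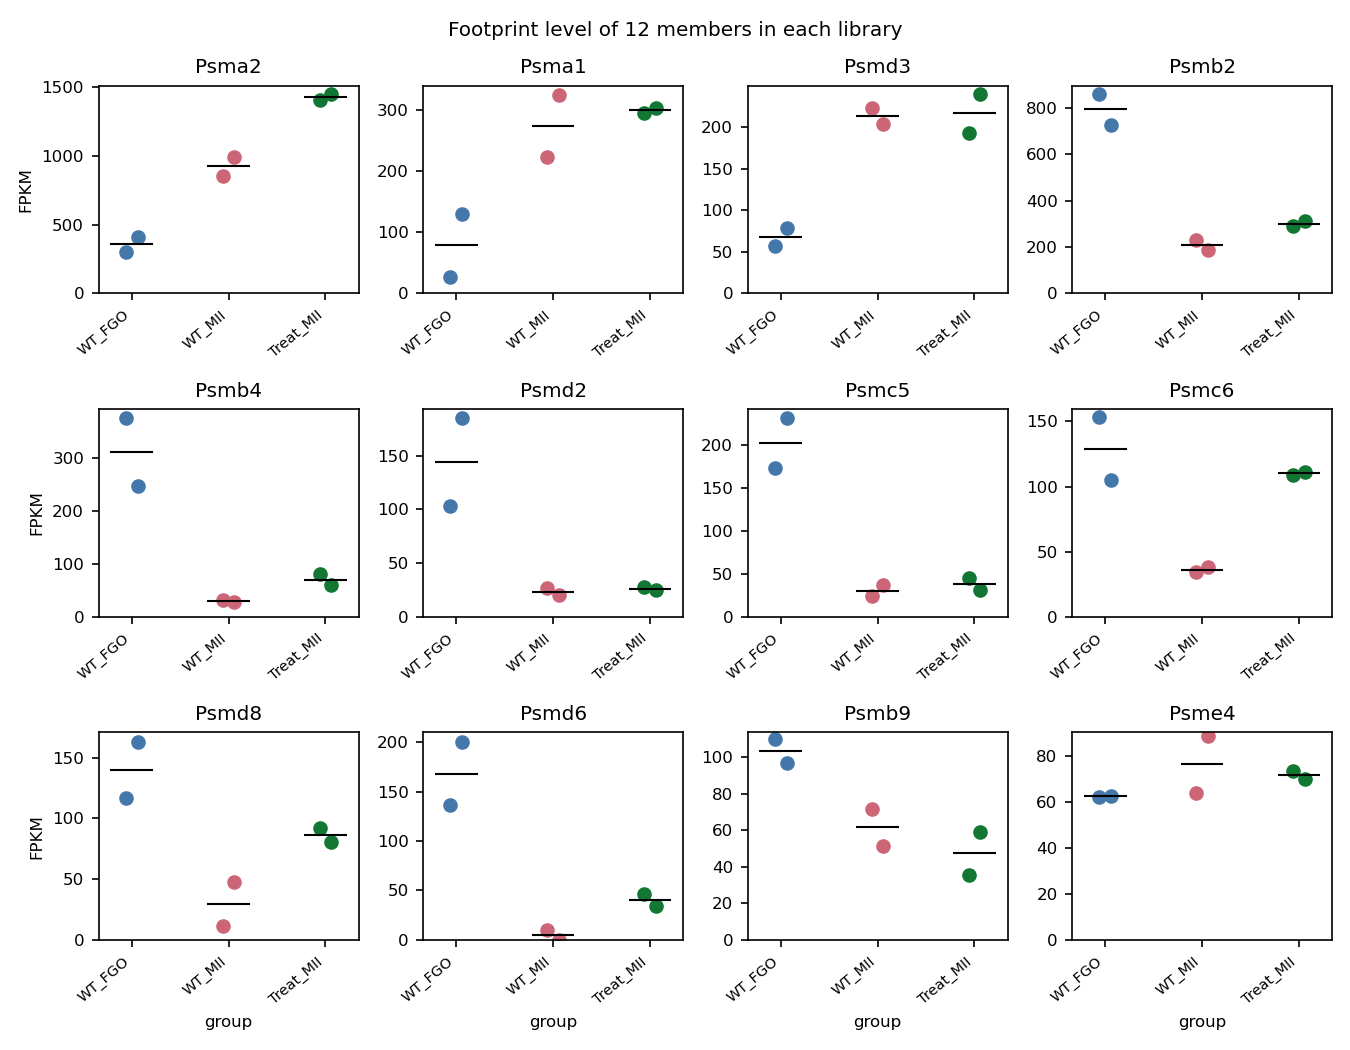
FPKM of 12 members in each library (points, 2 per group, bars at the mean; every axis starts at 0). Psma2, Psma1 and Psmd3 were lowest in WT_FGO, Psmb2, Psmb4, Psmd2 and Psmc5 were highest there, and Psmc6 in Treat_MII lay within the range of its WT_FGO values.

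Treat_MII was also set against WT_FGO, to place the treated oocytes relative to the start of maturation. This contrast shares its samples with both others. Psma2 rose by 2.02 ± 0.25 (SE, limma adjusted p = 0.0122), and it was the only one of the 44 members called (2.27% higher, against 2.86% of all genes, and 0 lower, against 1.0%). Both Treat_MII libraries lay above both WT_FGO libraries in 4 members (9.09%, against 16.6%), namely Psma1, Psma2, Psmd3 and Psme4, and below them in 22 members (50%, against 28.9%). The median difference was -0.75 over the members and -0.53 over all tested genes. For the 20 members with 60 or more reads it was -0.66, where it was 0.13 over the 2706 tested genes with as many reads. Of those 20 members, 60% lay below with no overlap (against 38.4%) and 20% above (against 42.4%).

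The largest differences in this contrast among members with a mean of at least 10 FPKM were those of Psmb3 and Psma1 upward and of Psme1 and Psmb1 downward. Psmb3, whose coding words mostly occur elsewhere too, had 2 and 0 reads in WT_FGO (34.5 and 0 FPKM), 0 and 4 in WT_MII (0 and 28.2 FPKM), and 12 and 5 in Treat_MII (58.9 and 29.5 FPKM). Psma1 had a difference of 2.31 ± 0.72 (SE, limma adjusted p = 0.156). Psme1 had 4 and 15 reads in WT_FGO and 2 in Treat_MII, a rate 28.6 times lower (exact 95% interval 6.90 to 253, adjusted p = 0.0881), and 12.9 times lower (1.84 to 142) without WT_FGO_2. Psmb1 had a rate 10.4 times lower (4.82 to 24.8, adjusted p = 0.110). Psmb2 narrowly missed the threshold (-1.39 ± 0.27 SE, adjusted p = 0.0517), as did Psmb4 (-2.12 ± 0.42, adjusted p = 0.0544) and Psmd3 (1.66 ± 0.35, adjusted p = 0.0648). Psma2 was not called without WT_MII_1, WT_MII_2, Treat_MII_1 or Treat_MII_2, and its difference lay between 1.79 and 2.36 over all alternatives. Without WT_FGO_2, Psma1 and Psmd3 were called higher beside Psma2, and Psmb2, Psmb4 and Psmb5 lower. In that fit WT_FGO is a single library, and Psmb5 had a single read in it and none in Treat_MII.

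The wider pathway was represented by 31 genes, for further subunits, assembly of the core, ubiquitin and its delivery to the proteasome, of which 27 were tested. In maturation 0 of the 27 were called higher (against 3.67% of all tested genes) and 2 lower (against 3.09%), the libraries did not overlap in 4 upward (against 15.3%) and 13 downward (against 25.8%), and the median was -1.09 (against -0.44). Sem1, a small subunit of the lid, fell from 1565 and 1687 FPKM to 491 and 412 FPKM, a difference of -1.85 (limma adjusted p = 0.00816), and had 1164 and 1019 FPKM in Treat_MII. Ubb, a polyubiquitin gene, fell from 707 and 499 FPKM to 59.6 and 23.7 FPKM, a difference of -3.94 (adjusted p = 0.0143), and had 95.7 and 63.4 FPKM in Treat_MII, where it was the only one of the 27 called against WT_FGO (adjusted p = 0.0460).

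Pomp, which assembles the core, had 555 and 163 FPKM in WT_FGO, 58.7 and 25.2 in WT_MII, then 93.6 and 98.4 in Treat_MII (maturation adjusted p = 0.0658). Akirin2, which brings proteasomes into the nucleus, had 123 and 201 FPKM, then 402 and 309 FPKM, and 461 and 451 FPKM, with both metaphase II groups above WT_FGO but uncalled (limma adjusted p = 0.111). Psmf1, an inhibitor of the core, had 183 and 333 FPKM, 96.9 and 58.6 FPKM, and 137 and 93.7 FPKM. The shuttle Ubqln1 had 85.0 and 176 FPKM, 219 and 258 FPKM, and 100 and 145 FPKM, and Rad23b had 1206 and 777 FPKM, 2307 and 278 FPKM, and 203 and 180 FPKM, with replicates of WT_MII far apart. Under treatment 0 of the 27 were called, and 13 lay above WT_MII with no overlap (against 16.2% of all tested genes) and 3 below (against 15.6%).

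The promoters of the members, 250 bases before to 50 bases after the gene start in RefSeq (GRCm38.p6), were searched on both strands for TGACNNNGC, the element of the antioxidant response through which factors of the Nfe2l family raise proteasome genes in other cells, and for CCAAT. Of the 37 members with a promoter in the table, 6 held the former (16.2%, against 14.0% of 27025 genes) and 14 the latter (37.8%, against 41.1%). On the coding strand alone the shares were 8.11% (against 7.29%) and 32.4% (against 23.7%), so that CCAAT lay below the share of all genes on both strands and above it on the coding strand. Footprints do not report on transcription, and Nfe2l1 and Nfe2l2 themselves had at most 17.8 FPKM in any library.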

How the data were processed

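Ribo-lite libraries of mouse oocytes were analysed from the deposited table, in which the authors gave FPKM per gene and library. Per the labels, cutadapt 1.14, Bowtie2 2.2.2 and STAR 2.5.3a were used with mm10. The program that counted reads, its annotation and strand setting, and any use of molecular identifiers are not given in the sources used here, and duplicates or reads placed at several sites could change the levels. RNA-seq of the study was not analysed here, so footprints were not set against mRNA.

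After leaving out 26 repeated names, reads were recovered from the FPKM and the coding lengths of GENCODE M21. Depth was 94309 to 331304 reads per library, and a single read on 1 kb of coding sequence made 10.6 to 3.02 FPKM. The 15127 genes whose mean reached 1 FPKM were fitted as log2(FPKM + 1) with limma 3.58.1 (R 4.3.3, lmFit, eBayes with trend). All 6 libraries were in a single fit with 3 group terms. On this scale a library at 0 can set the size or the sign of a difference. Psmc3ip, at 0 in WT_FGO_1, had a maturation difference of 1.87 while its mean fell from 41.6 to 36.7 FPKM. Benjamini-Hochberg adjustment ran over all tested genes, and an adjusted p under 0.05 was a call. The fit was tested on simulated data, where it called nearly all genes given the larger change, fewer given the smaller, and also some unchanged genes, more of them among genes with few reads. Rates from few reads were compared by exact 95% binomial intervals (scipy 1.17.1). Groups come from the sample titles.

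Named are the 3 highest members of each structural group, those called, the inducible or tissue-restricted forms, the activators and the 2 largest rises and falls per contrast among members with a mean of at least 10 FPKM. Other members named beside them were chosen after their values were seen. The members, gene lists and markers were chosen with earlier results of these data known. Alternatives were a pseudocount of 0.1, other filters and scalings, precision weights on recovered reads, the replicate number as a block, other variance settings and leaving out each library. A gene of the wider pathway list and the sequences of the G-quadruplex motifs are not reported here.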

Additional observations from a re-analysis of the deposited data

How the results depend on the processing

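The signs of all 11 maturation calls and of the Psma2 call against WT_FGO were kept in all 16 alternatives of their contrast. Many of these alternatives could not change a sign, as set out above, so this count is no measure of robustness. The median maturation difference of the members was -1.27 after centring on the median log2 ratio and -1.54 after quantile normalization, and lay between -2.02 and -1.30 with a library left out. The treatment median was 0.27 to 0.53 with a library left out. The members' median of Treat_MII against WT_FGO was -0.40 after centring (all genes -0.18) and -0.49 after quantile normalization (all genes -0.15). With precision weights on the recovered reads it was -1.06, where all genes had -1.16. The members' median lay between -1.09 and -0.59 with a library left out. Centring shifted the median of all genes from -0.44 to 0.02 in maturation, where it called 758 genes higher and 305 lower (555 and 468 otherwise).

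Members called higher in maturation were 1 without a filter on low values and 0 without a mean-variance trend or with only the compared groups, and members called lower were 5 after centring, 19 with precision weights and 0 without the trend or with only the compared groups. With a library left out, 0 to 3 members were called higher and 0 to 9 lower in maturation, 0 to 2 higher and 0 to 1 lower under treatment, and 0 to 3 higher and 0 to 4 lower against WT_FGO. Against WT_FGO, members called higher were 2 after centring, after quantile normalization and with the filter at 5 FPKM, 3 with precision weights, and 0 without the trend or with only the compared groups. Members called lower there were 5 with that filter, 13 with precision weights, 1 with a pseudocount of 0.1 and 2 after quantile normalization. Precision weights called 13.6% of all genes lower in that contrast. Over all genes, precision weights called 803 higher and 1575 lower in maturation and 65 and 100 under treatment, with 0 members among the latter, and only the compared groups called 0 and 0 in maturation. Leaving out the most abundant member kept the order of the 3 groups in the core, ATPase, non-ATPase and activator sums, whereas the alpha ring turned to 556, 431 and 403 FPKM in WT_FGO, WT_MII and Treat_MII.

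The replicate numbers were not taken as pairs, since deviations of same-numbered libraries correlated at 0.0342, 0.0176 and 0.0189 over 2706 genes. With the replicate block, 1 member was called higher and 6 lower in maturation, 0 under treatment and 1 against WT_FGO. Of the 24 members with under 60 reads, 3 were called in maturation.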
